A study of Rattus norvegicus with 4 samples.

Results

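Schwann cells are the glia of peripheral nerves, and in the pancreas they form a thin sheath around each islet and follow the nerve fibres that enter it. They descend from the neural crest under the transcription factor SOX10, carry the calcium-binding protein S100B and the intermediate filament GFAP, and express the low-affinity neurotrophin receptor NGFR. A Schwann cell that wraps a large axon also makes myelin, in which myelin basic protein (MBP) holds the membrane layers together, whereas most glia at the islet are of the non-myelinating kind. The genes described here are the 6 rat genes S100b, Sox10, Gfap, Ngfr, Cdh19 and Mbp, of 26456 gene labels on the array. They were chosen by name as myelin and glial genes of Schwann cells around the islet, and every probe with one of these names is shown, 8 probes in all of 30367.

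The RNA came from islets isolated from Sprague Dawley rats at postnatal day 14. In the 4 samples with intrauterine growth restriction (IUGR), the dam had both uterine arteries tied at embryonic day 18, which limits the blood supply of the fetus. The dams of the 4 control samples had sham surgery, and the pups of both groups were born spontaneously. Each of the 4 arrays was a 2-colour array that took labelled cDNA of 1 IUGR and 1 control sample. Array 1 paired IUGR replicate 2 (Cy5) with control replicate 1 (Cy3), and array 2 paired IUGR replicate 1 (Cy5) with control replicate 2 (Cy3). Array 3 paired IUGR replicate 4 (Cy3) with control replicate 3 (Cy5), and array 4 paired IUGR replicate 3 (Cy3) with control replicate 4 (Cy5). The labels give neither the sex of the pups, nor the number of animals in a sample, nor their litters, so p-values speak only of these samples. They measure the spread within arrays 1 and 2 and within arrays 3 and 4, moderated across probes. The difference between these 2 pairs of arrays, which also hold different samples, is taken out with the dye.

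The IUGR channel was the brighter one on array 1, with a log2 ratio of the median signals of 1.68, and the dimmer one on arrays 2 to 4, at -1.58, -2.42 and -1.55. After normalization, r across probes was 0.12, -0.23 and -0.30 between array 1 and each of the others in turn, and 0.37 to 0.64 among the others. Probes are not independent replicates, and these values are a description. The dye directions come from the labels. The hormone genes that define the tissue, Ins1, Ins2, Gcg, Sst and Ppy, were well above background (the scanner software's flag for a spot brighter than its surroundings) in all 8 channels.

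The 8 probes are 60 bases long, and a stretch of 30 bases of each is shown to show what each value was read with. Capitals mark the hexamers AATAAA and ATTAAA, the sequences that direct cleavage and polyadenylation of a transcript. They were searched on the printed strand only, and a probe with both was counted once under either. Coordinates are those of assembly rn4 in the scanner files.
Mbp A_64_P017163: cttggatattgaAATAAAatAATAAActtg
Mbp A_64_P017160: aatatcctgtgaATTAAAatgtatcagaag
Sox10 A_44_P447394: cagcgatatcttAATAAAgtacgtagctct
S100b A_64_P109327: tcaggatgacaccattgtccccataggaca
S100b A_43_P15530: tatttgacatcaacagttccaactggtgga
Ngfr A_44_P556989: tggtatttttatggaccccaatctgcaatt
Gfap A_44_P464502: agatcccgaggcaaagaatctctagccaga
Cdh19 A_64_P052815: ggttctgcagtgcaacctgacaattaaggt

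Both Mbp probes hold such a hexamer, and so does the Sox10 probe, while the other 5 probes hold neither. Over all 30367 probes, AATAAA was present in 8.39%, ATTAAA in 3.05% and either in 11.2%. A match is a description of the letters, not of a site in use. The Mbp probes had the lowest GC contents of the 8, 35.0% and 30%, against a median of 45.0% over all probes. All 8 probes matched a gene of the RefSeq table (GRCr8, used for names only) by accession, with the same symbol as in the scanner files.

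The 8 probes differed first in whether they were detected. Sox10, Ngfr, both Mbp probes and S100b A_64_P109327 were well above background in all 8 channels. Gfap and Cdh19 were well above background in 0 of 8 channels, and S100b A_43_P15530 in 1 control channel alone, on array 3. The test took probes with a value from every array that passed this flag in 2 or more channels of one group, which left 5 of the 8 probes and 4 of the 6 genes among 22967 tested probes. Thus 2 of the genes that mark glia, Gfap and Cdh19, had no measured level in either group, and the label rests on Sox10, S100b, Ngfr and Mbp. These 4 genes are also expressed by other cells, and in islet RNA fewer cells of a type and less RNA per cell cannot be told apart.

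Between the groups, the 4 detected genes had mean log2 IUGR over control ratios between -0.66 (Mbp A_64_P017163) and -0.22 (Ngfr), and the second detected Mbp probe had 0.13. None passed the test. Limma called 0 of 22967 probes at an adjusted p under 0.05 (0%), and the smallest adjusted p of any probe was 0.340. At an unadjusted p under 0.05 there were 3081 probes (13.4%), 1634 higher and 1447 lower in IUGR, and 1 of the 5 tested glial probes, Mbp A_64_P017163, was among them. A mean ratio below 0 was found in 4 of the 5, against 46.1% of all tested probes. The ratio was below 0 on all 4 arrays in 3 of the 5, against 9.59% of all, and above 0 on all 4 arrays in 0 of the 5, against 11.4% of all. The median ratio of all tested probes was 0.02, and their interquartile range was -0.11 to 0.16.

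**Figure D1:**
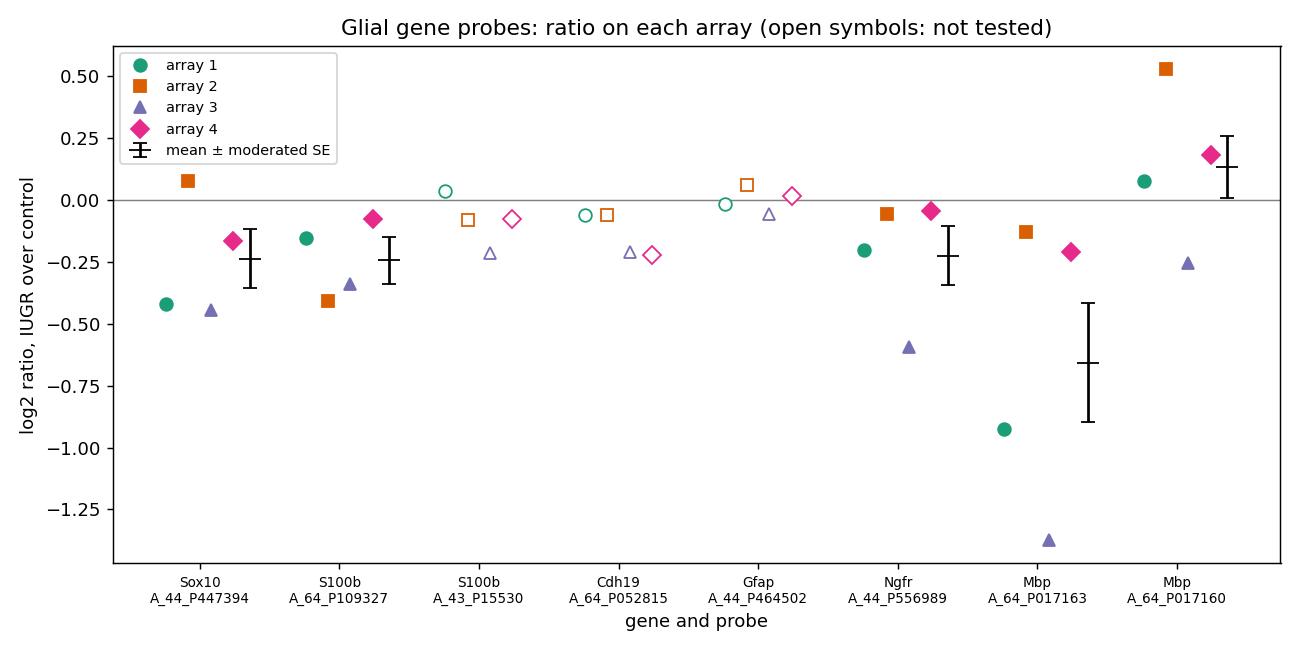
Log2 IUGR over control ratio of the 8 glial gene probes (horizontal axis) on each of the 4 arrays, with the mean and its moderated limma SE for the tested probes; open symbols are probes that were not tested. Array 3 gave the lowest ratio of Sox10, Ngfr and both Mbp probes, and the Mbp probes had means of -0.66 and 0.13.

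Sox10, the transcription factor that specifies glia from the neural crest and switches on myelin genes, was read by 1 probe at chr7:117138840-117138899 (minus strand). Its normalized levels (log2 intensity after loess and quantile normalization of the mean intensity) were 8.45, 7.90, 8.18 and 8.17 in control replicates 1 to 4. In IUGR replicates 1 to 4 they were 7.98, 8.03, 8.01 and 7.74. Such levels are set side by side only within 1 probe, and the dye effect of the probe is left in them. Both dyes were used in each group, so an order of samples by level mixes dye with sample. IUGR replicate 4 was the lowest and control replicate 1 the highest, and the groups overlapped through control replicate 2. The ratios on arrays 1 to 4 were -0.42, 0.08, -0.44 and -0.16, with a mean of -0.24 ± 0.12 (moderated SE, n = 4 arrays; 95% interval -0.55 to 0.07; limma adjusted p = 0.348). The mean was -0.11 without array 1, -0.36 without array 2, and -0.14 when spots with an outlying local background were left out or kept as measured.

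S100b encodes a small calcium-binding protein of Schwann cells and astrocytes that is also released from them. Its probe A_64_P109327 lies at chr20:12791789-12791848 (minus strand), and A_43_P15530 at chr20:12791899-12791958, 110 bases away and on the same RefSeq transcript. At A_64_P109327 the levels were 8.73, 8.35, 8.53 and 8.47 in control replicates 1 to 4 and 7.95, 8.58, 8.39 and 8.19 in IUGR replicates 1 to 4. The control samples lay close together, whereas IUGR replicate 1 was lowest and IUGR replicate 2 was above 3 of the 4 controls, so the groups overlapped. The ratios were -0.15, -0.41, -0.34 and -0.08, below 0 on each array, with a mean of -0.24 ± 0.09 (moderated SE, n = 4; 95% interval -0.49 to 0.0026; limma adjusted p = 0.340).

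The other S100b probe, A_43_P15530, was printed as 10 spots and gave ratios of 0.04, -0.08, -0.21 and -0.08 on arrays 1 to 4. Its mean signals were 20.2 to 83.6 intensity units over local backgrounds of 17.9 to 45.6, so these ratios compare signals near background and give no fold.

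Gfap, the intermediate filament gene of astrocytes and non-myelinating Schwann cells, had 1 probe of this name, at chr10:92060835-92060894 (minus strand), printed as 10 spots. Its mean signals were 19.5 to 50.3 intensity units over local backgrounds of 18.9 to 44.6, and its ratios were -0.02, 0.06, -0.06 and 0.01 on arrays 1 to 4. Cdh19, a type II cadherin of Schwann cell precursors, had 1 probe at chr13:18148715-18148774 (minus strand) with signals of 21.8 to 65.6 over backgrounds of 17.5 to 53. Its ratios were -0.06, -0.06, -0.21 and -0.22. With no channel well above background, neither gene has a fold between the groups.

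Ngfr, the low-affinity receptor of the neurotrophins (p75), marks immature and non-myelinating Schwann cells and is also carried by some neurons and mesenchymal cells. Its probe lies at chr10:84263082-84263141 (minus strand). The levels were 8.49, 8.19, 8.57 and 8.18 in control replicates 1 to 4 and 8.14, 8.29, 8.14 and 7.98 in IUGR replicates 1 to 4. Control replicates 1 and 3 stood above all IUGR samples, while control replicates 2 and 4 lay among them. The ratios were -0.20, -0.06, -0.59 and -0.04, with a mean of -0.22 ± 0.12 (moderated SE, n = 4; 95% interval -0.53 to 0.08; limma adjusted p = 0.357). The mean was -0.087 without array 3, -0.36 without array 4, and -0.098 when the outlying local backgrounds were left out or kept as measured.

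The Ngfr probe was printed as 10 spots on each array. On array 3 all 10 spots lay between -0.69 and -0.47, and on array 4 they lay between -0.12 and 0.04. The SD over spots was 0.054 to 0.084 within an array, whereas the SD of the 4 array means was 0.26. The low Ngfr ratio of array 3 was present in each of its spots. The arrays hold different samples, so the 2 SDs measure different things and bear on no effect of IUGR. For Gfap, near background, the spot SD was 0.076 to 0.12 and the SD between arrays 0.049, and for S100b A_43_P15530 they were 0.060 to 0.11 and 0.10.

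**Figure D2:**
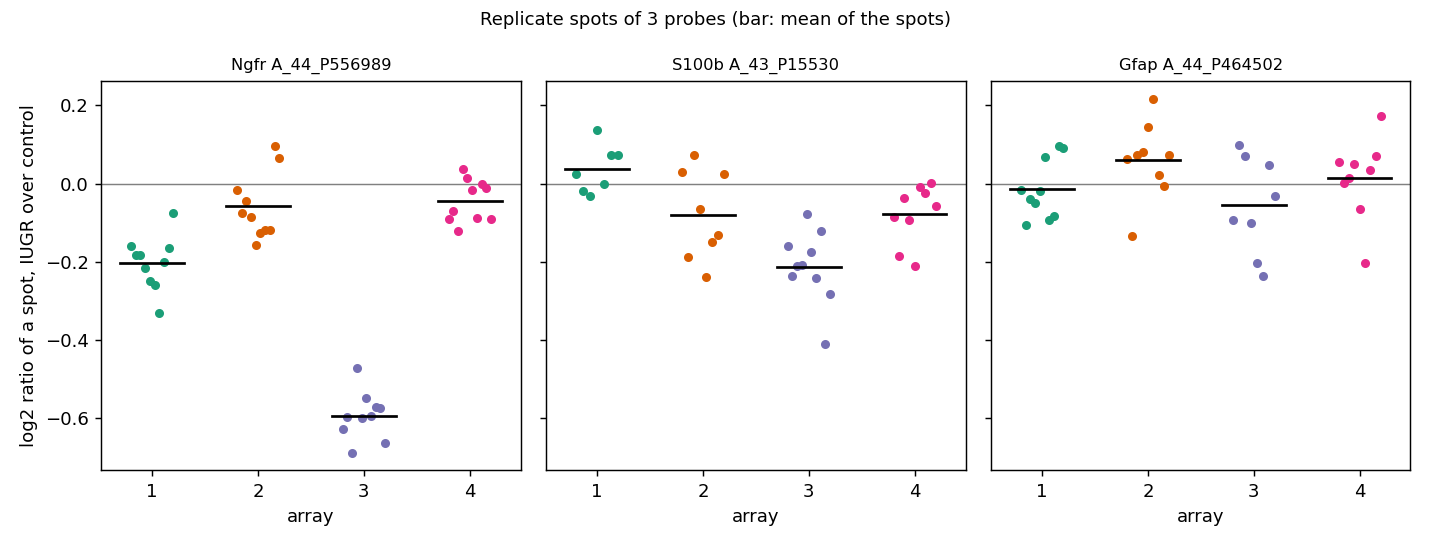
Log2 IUGR over control ratio of each replicate spot (points) of Ngfr, S100b A_43_P15530 and Gfap on arrays 1 to 4, with the mean of the spots as a bar. The Ngfr spots of array 3 lie between -0.69 and -0.47, apart from those of the other arrays, while the Gfap spots of all arrays surround 0.

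Mbp encodes the basic protein that joins the inner faces of the myelin membrane, and the same gene also makes longer transcripts outside myelin. Its probes lie on chromosome 18 (plus strand) 30822 bases apart. A_64_P017163, at chr18:79057264-79057323, is assigned in the scanner files to transcript variant 1 and lists 4 RefSeq transcripts, and A_64_P017160, at chr18:79026442-79026501, is assigned to variant 6 and lists 1. In both, a stop codon was present in all 3 forward reading frames of the 60 bases. Exon and UTR annotation of rn4 was not used here.

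At Mbp A_64_P017163 the levels were 10.83, 9.85, 10.30 and 10.03 in control replicates 1 to 4 and 9.72, 9.91, 9.82 and 8.93 in IUGR replicates 1 to 4. Control replicate 1 was the highest and IUGR replicate 4 the lowest, and the groups overlapped where control replicate 2 lay below IUGR replicate 2. The ratios were -0.92, -0.13, -1.37 and -0.21, below 0 on each array, with a mean of -0.66 ± 0.24 (moderated SE, n = 4; 95% interval -1.29 to -0.03; limma adjusted p = 0.340), or 1.58-fold more in control. Arrays 1 and 3 carried most of this: leaving one of them out gave -0.46 (array 1) or -0.37 (array 3), and leaving out array 4 gave -0.95. It was -0.44 when the outlying local backgrounds were kept as measured.

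At Mbp A_64_P017160 the levels were 8.03, 7.60, 8.15 and 7.79 in control replicates 1 to 4 and 8.13, 8.11, 7.97 and 7.89 in IUGR replicates 1 to 4. Here control replicate 2 was the lowest sample, and all 4 IUGR samples lay below control replicate 3. The ratios were 0.08, 0.53, -0.26 and 0.18, with a mean of 0.13 ± 0.13 (moderated SE, n = 4; 95% interval -0.20 to 0.46; limma adjusted p = 0.557). Leaving out 1 array moved the mean both ways, to 0.25 (array 1), 0.02 (array 2), 0.24 (array 3) and 0.02 (array 4).

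Within an array the Mbp probes differed the same way each time. The ratio of A_64_P017163 minus that of A_64_P017160 was -0.999, -0.66, -1.12 and -0.39 on arrays 1 to 4, a mean of -0.79 ± 0.33 (SD, n = 4). The Mbp probes were proposed for display because their means differ in sign, so this difference is given with no test.

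**Figure D3:**
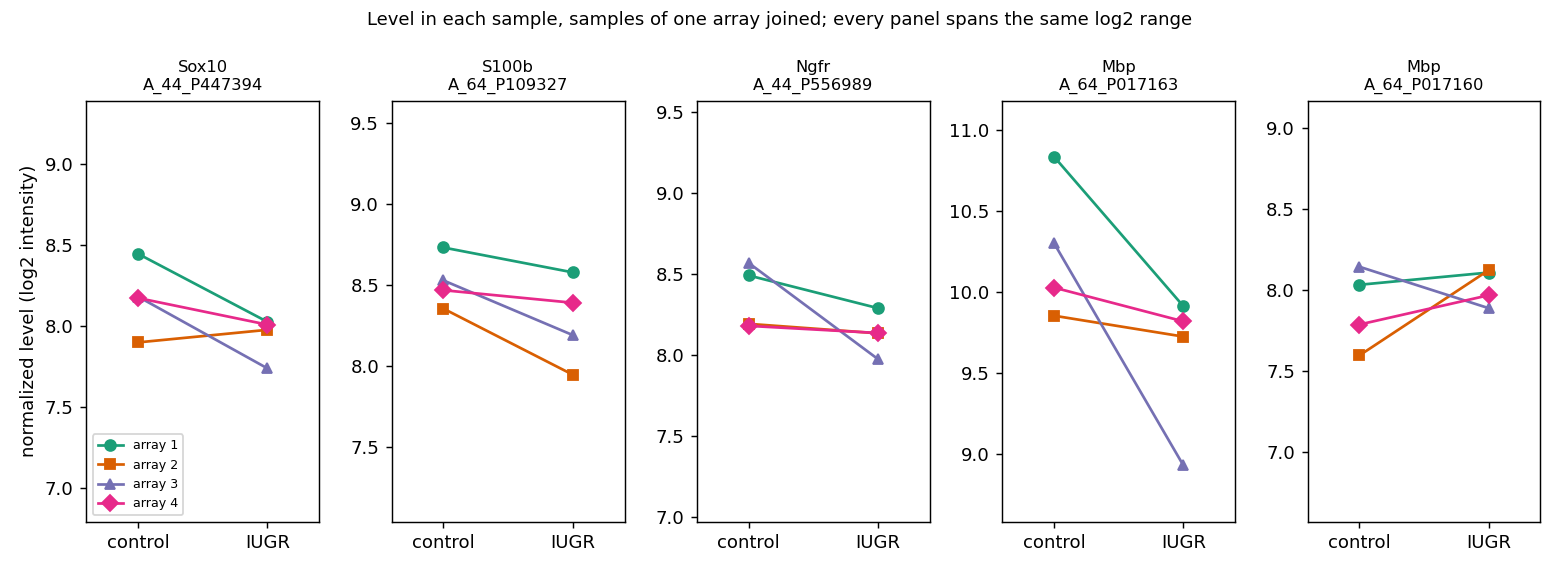
Normalized level (log2 intensity) of the 5 tested probes in each control and IUGR sample, with the samples of 1 array joined by a line; each panel spans the same log2 range and has its own position on the axis. Lines slope down towards IUGR on all 4 arrays for S100b, Ngfr and Mbp A_64_P017163, with the steepest on arrays 1 and 3 for Mbp, and the groups overlap in every panel.

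The genes whose 4 array ratios were most like those of a glial gene (smallest Euclidean distance among named tested probes) were as follows. For Sox10 they were Nefl, the light neurofilament gene, at a distance of 0.042, and Slitrk3, a neuronal membrane protein gene, at 0.11. For Ngfr the nearest was Apobec2 at 0.085. For S100b they were MGC72627 at 0.049 and Socs6 at 0.053. Mbp A_64_P017163 had no close neighbour, the nearest being Arc at 0.62 and Tm4sf5 at 0.66. Each distance rests on 4 ratios and is a description.

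Of 15 other myelin genes, 13 were tested, with 0 called by limma and a median of -0.05. An unadjusted p under 0.05 was found in 2 of the 13, against 13.4% of all tested probes. A mean ratio below 0 was found in 7 of the 13, against 46.1% of all. Fa2h, which hydroxylates the fatty acids of myelin lipids, had -0.35 ± 0.11, and Mal, a myelin membrane proteolipid, had -0.21 ± 0.08, both with a limma adjusted p of 0.340. Fa2h and Mal were below 0 on each array. Above 0 were 6 genes, from nearly 0 to 0.55. Among them Mag, a myelin adhesion protein of the axon contact, had 0.23 ± 0.10 (limma adjusted p = 0.340). Its ratios were 0.19, 0.54, 0.19 and 0.0045 on arrays 1 to 4, the last being nearly 0.

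Of the genes of the Schwann lineage and of satellite glia, 10 of 14 were tested, with 0 called by limma and a median of -0.10. An unadjusted p under 0.05 was found in 4 of the 10 (3 lower, 1 higher), against 13.4% of all tested probes. Below 0 lay 9 of the 10, against 46.1% of all. Scn7a, a sodium channel gene of non-myelinating Schwann cells, had -0.54, -0.93, -0.70 and -0.55 on arrays 1 to 4 at A_42_P804822, a mean of -0.68 ± 0.10 (moderated SE; limma adjusted p = 0.340). Its other probe, A_64_P026716, had -0.13. Sox2, a transcription factor of immature Schwann cells, had -0.45 ± 0.14, with -0.04 at its other tested probe, and Cadm4, the Schwann cell partner of axonal adhesion proteins, had 0.52 ± 0.19, both with an adjusted p of 0.340. The count below 0 was 6 without array 3 and 6 with median centring in place of loess.

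Ngfr binds the neurotrophins, and of 18 neurotrophic ligands and receptors 15 were tested, with 0 called by limma and a median of -0.15. An unadjusted p under 0.05 was found in 4 of the 15 (3 lower, 1 higher), against 13.4% of all tested probes. Below 0 lay 11 of the 15, against 46.1% of all. Ntrk3, the receptor of neurotrophin 3, had -0.46 ± 0.13, with -0.83, -0.89, 0.28 and -0.40 on arrays 1 to 4, and -0.21 at its other tested probe. The ligand gene Ntf3 had -0.32 ± 0.10 and was below 0 on each array. The GDNF relative Nrtn had 0.30 ± 0.10, with -0.16, 0.20, 0.45 and 0.71 on arrays 1 to 4. At these values the limma adjusted p was 0.340 for Ntrk3, Ntf3 and Nrtn. Bdnf and Gdnf were on the array but were not among the tested genes.

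S100b has many relatives with an EF-hand, and of 14 listed S100 genes and their receptor 13 were tested. Limma called 0 of them, and their median was -0.12. An unadjusted p under 0.05 was found in 2 of the 13, against 13.4% of all tested probes. Below 0 lay 9 of the 13, against 46.1% of all. The 3 with the smallest p were S100a5 (-0.61 ± 0.12), S100a11 (-0.90 ± 0.34) and S100g (-0.43 ± 0.20), each with a limma adjusted p of 0.340. On arrays 1 to 4, S100a5 had 0.17, -0.38, -1.08 and -1.16, and S100g had 0.003, -0.33, -1.24 and -0.15. S100a11 was below 0 on each array. None of these 3 is a glial marker. S100a8 and S100a9, the calprotectin genes of neutrophils, had 0.62 and 0.53, with array 1 at -1.07 and -1.20 and the other arrays between 0.96 and 1.32.

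Of 16 genes of nerve fibres, 15 were tested, with 0 called by limma and a median of -0.11. An unadjusted p under 0.05 was found in 1 of the 15, against 13.4% of all tested probes. Below 0 lay 10 of the 15, against 46.1% of all. Vip, the transmitter peptide of pancreatic parasympathetic nerves, had -0.88, -0.46, -0.66 and -0.25 on arrays 1 to 4 and a mean of -0.56 ± 0.12 (moderated SE; limma adjusted p = 0.340). Nefm, the medium neurofilament gene, had -0.25 ± 0.10 (limma adjusted p = 0.340). The count below 0 was 7 without array 1.

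**Figure D4:**
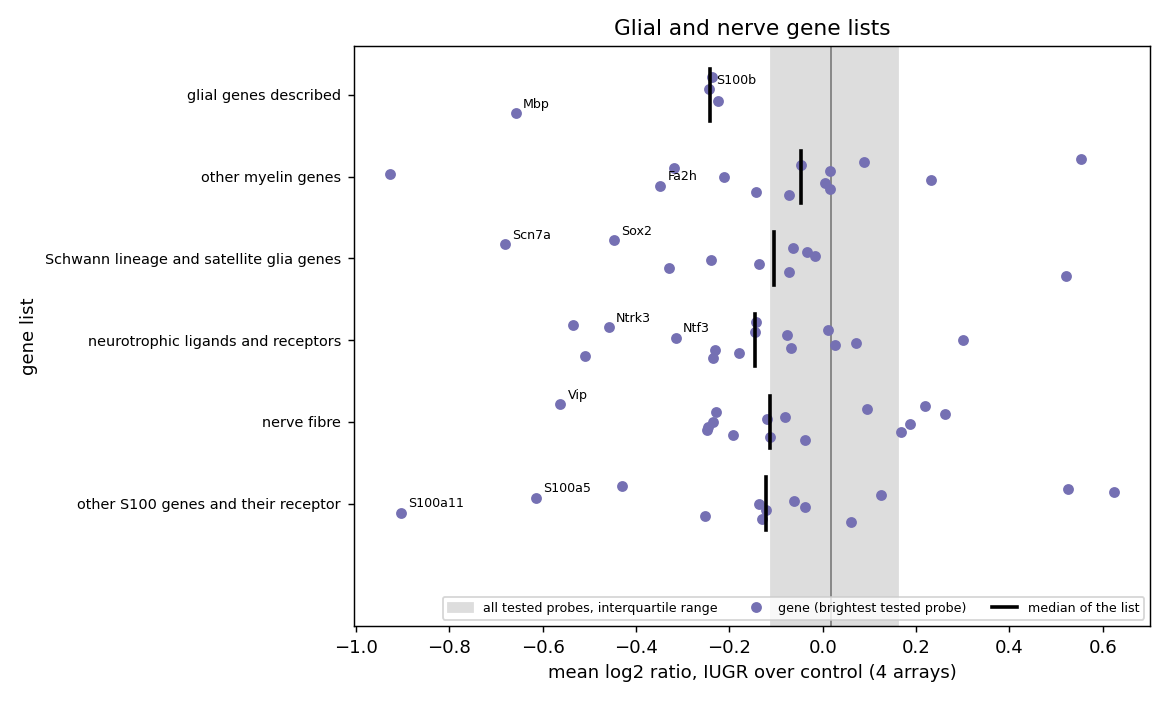
Mean log2 IUGR over control ratio (horizontal axis, 4 arrays) of each tested gene, at its brightest probe, in the 6 glial genes and 5 related lists; the bar is the list's median, and the grey band spans the interquartile range of all tested probes (-0.11 to 0.16). The labelled genes are among the 3 with the smallest p of their list. The medians of the 5 lists lie between -0.15 and -0.05, and that of the 4 tested glial genes at -0.24.

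Markers of other cell types that islet preparations can hold also differed between arrays, and their part in the glial ratios was not tested. Limma called 0 genes in each of these lists. An unadjusted p under 0.05 was found in 13.4% of all tested probes, and a mean ratio below 0 in 46.1%. Such a p was found in 7 of 9 T and NK cell, 6 of 9 macrophage and 5 of 7 pericyte and smooth muscle genes. The counts were 4 of 5 for B cell, 4 of 4 for red blood cell, 4 of 10 for fibroblast and stellate and 3 of 4 for adipocyte genes. They were 2 of 7 for duct, 2 of 7 for endothelial, 1 of 9 for acinar and 1 of 5 for endocrine genes. The 4 tested glial genes had mean ratios of -0.42, -0.13, -0.69 and -0.12 on arrays 1 to 4. The log2 of their summed level was 10.28 to 10.91 in IUGR and 10.80 to 11.53 in control. Both took the brightest probe of each gene, so Mbp A_64_P017160 was not in them. Of the probes summed, Mbp A_64_P017163 had the highest mean levels, 9.59 in IUGR and 10.25 in control. Pericyte and smooth muscle genes were below 0 in 6 of 7, with array means of -1.07, -0.73, 0.30 and -0.21 and summed levels of 13.61 to 14.84 in IUGR and 14.53 to 14.96 in control. T and NK cell genes were below 0 in 9 of 9 (array means -0.0012, -0.30, -1.34 and -0.71; summed levels 10.13 to 10.43 and 10.41 to 12.44), and B cell genes in 5 of 5 (0.03, -0.27, -1.15 and -0.72; 9.13 to 9.99 and 9.11 to 11.16). Duct genes were below 0 in 6 of 7 (-0.08, -0.59, -0.45 and -0.34; 12.28 to 12.79 and 12.30 to 13.11).

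In the other direction, macrophage genes were below 0 in 2 of 9 (array means 0.38, 0.43, 0.13 and 0.22; summed levels 13.84 to 14.81 in IUGR and 13.40 to 14.48 in control). Endothelial genes were below 0 in 1 of 7 (-0.45, -0.02, 0.55 and 0.54; 16.11 to 16.67 and 15.88 to 16.61). Acinar genes (0.38, 0.02, 1.64 and -0.23; 18.91 to 20.18 and 18.50 to 19.69) were below 0 in 0 of 9. Adipocyte genes (0.20, 0.30, 1.01 and 0.41; 13.40 to 14.13 and 12.71 to 13.80) and red blood cell genes (-0.44, 0.26, 1.34 and 1.02; 17.03 to 18.52 and 17.15 to 17.60) were each below 0 in 0 of 4. Fibroblast and stellate genes were below 0 in 5 of 10 (-0.20, -0.60, 0.12 and 0.12; 16.44 to 17.55 and 16.97 to 17.53) and endocrine genes in 3 of 5 (0.86, 0.73, -0.74 and -0.84; 18.84 to 20.06 and 18.87 to 19.89). The 2 arrays with the lowest glial means were 1 and 3. On array 3 the T and NK cell, B cell and macrophage lists were at their lowest. The acinar, adipocyte, red blood cell, endothelial, pericyte and smooth muscle, and fibroblast and stellate lists were at their highest there. On array 1 the pericyte and smooth muscle, endothelial, red blood cell and adipocyte lists were at their lowest. The T and NK cell, B cell, duct and endocrine lists were at their highest on array 1. The endocrine list was split by dye, above 0 on arrays 1 and 2 (IUGR in Cy5) and below 0 on arrays 3 and 4 (IUGR in Cy3). Ins1 had 1.06, 1.70, -0.98 and -0.89 on arrays 1 to 4, and Ins2 1.26, 1.72, -1.03 and -0.79. Dye and sample cannot be told apart in this split.

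**Figure D5:**
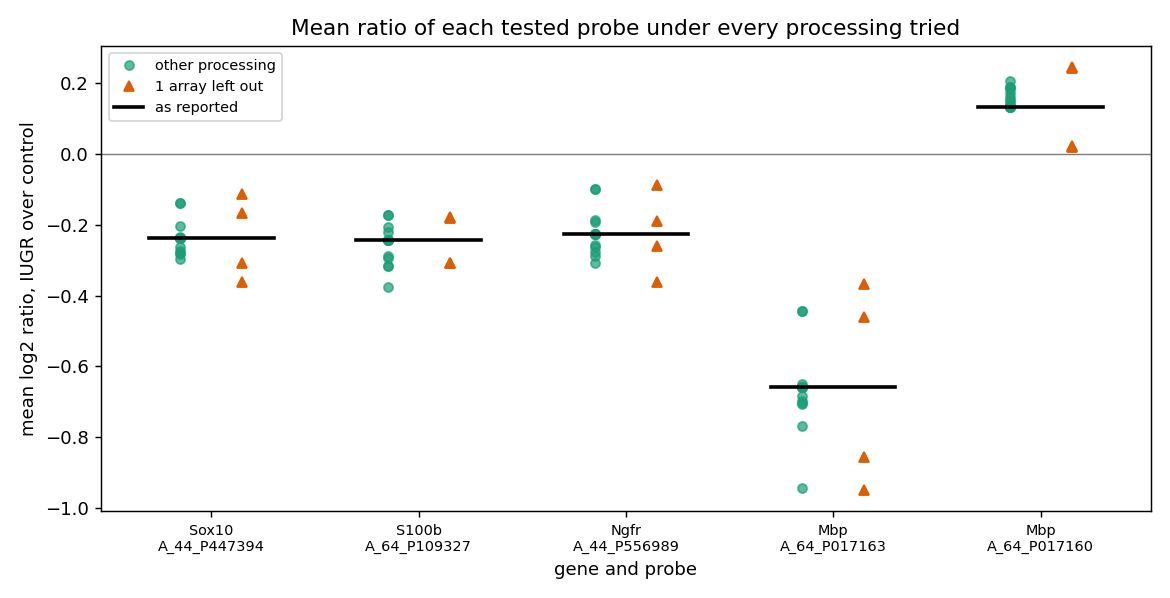
Mean log2 IUGR over control ratio (vertical axis) of the 5 tested glial probes as reported (bar), under other processing (circles) and with 1 array left out (triangles). Mbp A_64_P017163 ranges from -0.95 to -0.37 and Mbp A_64_P017160 from 0.02 to 0.25, and no probe crosses 0.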

How the data were processed

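Islet RNA of 4 IUGR and 4 control samples was measured on 4 arrays with 1 scan date in the file headers. Per the file headers, the deposited scanner files were made with Agilent Feature Extraction 10.10.1.1 (protocol GE2_1010_Sep10, design 28282, rn4) and hold mean signal and background intensity per spot, and a log10 red over green ratio. The authors' deposited value table holds log2 ratios, which matched Cy5 over Cy3 when set against the scanner values (medians -0.029 to 0.008, r with loess ratios 0.91 to 0.98); its normalization is not given in the sources used here. The submitters' processing notes name limma.

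Mean signals were corrected with normexp (offset 50) and loess in limma 3.58.1 (R 4.3.3). Outlying local backgrounds (222, 44, 145 and 52 spots) were set to the array median of the channel, feature-outlier spots were left out, and spots of a probe were averaged. The fit per probe held a dye term (2 residual and 2.74 prior degrees of freedom), with Benjamini-Hochberg adjustment over 22967 probes. The moderated SE has the dye difference taken out. The fit was tested on simulated data. No spot was saturated. The number of arrays limits the precision. Named were all probes of the 6 genes, the 3 tested genes with the smallest p of each list and the 2 nearest patterns; lists used 1 probe per gene, the brightest tested. Other genes named were chosen after their values were seen. Lists of other cell types are given by counts and means, without their 3 genes. Some genes that this rule takes are not reported here. The members and lists were chosen with earlier results of these data known.

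Same-numbered IUGR and control replicates were never on 1 array. The correlations of their deviations from the group means were -0.06, -0.29, 0.12 and -0.17. The dye was not taken out of these deviations, and same-numbered replicates always carried opposite dyes. The correlations therefore cannot show whether the numbers pair samples. In the main fit the numbers were not used as pairs. Alternatives changed the background, offset, normalization, filter, model and arrays.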

Additional observations from a re-analysis of the deposited data

How the results depend on the processing

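Under 19 alternatives the 5 tested glial probes kept the sign of their mean ratio, and their limma adjusted p stayed between 0.154 and 0.987. The second Mbp probe, A_64_P017160, was not in the alternative of 1 probe per gene. Median centring in place of loess called 15 probes (0 as reported), none of them glial. Every other alternative called 0 probes, and an unadjusted p under 0.05 was reached by 3081 probes as reported, 7055 without array 1, 1004 without array 2, 502 without array 3 and 2474 without array 4. It was reached by 1615 with outlying backgrounds left out and 1620 with them kept as measured. Median centring gave 1335, and channel brightness in the model gave 1228. The count was 3128 with no background subtraction, 3260 with array weights and 3343 with no dye term. The share of 13.4% of all tested probes thus depends on the processing. Leaving out 1 array gave -0.36 to -0.11 for Sox10, -0.36 to -0.087 for Ngfr, -0.31 to -0.18 for S100b, -0.95 to -0.37 for Mbp A_64_P017163 and 0.02 to 0.25 for Mbp A_64_P017160. Leaving out outlying backgrounds, which then still entered the normexp fit, gave -0.098 for Ngfr, -0.14 for Sox10 and -0.44 for Mbp A_64_P017163. With the replicate number as a block, 0 probes were called and 2576 had an unadjusted p under 0.05. By the labels, the samples of a block share only a number. Counts of list genes below 0, an alternative added after seeing the data, ranged from 5 to 9 for myelin and from 6 to 9 for the Schwann lineage. Signals near background leave the levels of Gfap, Cdh19 and S100b A_43_P15530 unmeasured.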

Other observations

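A second probe described as Gfap in the scanner files, A_64_P049977 at chr10:92063092-92063151, carries an Ensembl transcript as its gene name and so falls outside the choice of probes by name. It too was well above background in 0 of 8 channels, with ratios of -0.02, 0.05, 0.11 and -0.01 on arrays 1 to 4. With no filter on dim probes, Cdh19 had a mean of -0.14 ± 0.06 (moderated SE; limma adjusted p = 0.383) and Gfap 0.0005 ± 0.06 (0.997), both from signals near background. Among 24 sets of 4 values (the ratios, the IUGR levels and the control levels of each of the 8 probes), 0 held a value outside Dixon's 95% limit, which chance exceeds about 1 time in 20.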
